A study of Homo sapiens with 4 samples.

Results

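DNA replication in human cells starts at origins that are prepared before S phase, and protein machines that travel with each fork then copy the strands. 50 genes of this origin and fork machinery were read out in the RNA of adherent cells and spheroids of 2 colorectal carcinoma cell lines. They were chosen by function, as the subunits and direct regulators of origin recognition, licensing, the helicase, the polymerases, the clamp, Okazaki fragment joining and fork protection, together with 4 E2F factors, and no cutoff on a measured value was part of that rule. The deposited table lists 58735 genes, of which 14429 had a mean level of at least 1 FPKM (fragments per kilobase of exon, scaled to library size) over the 4 libraries. All 50 replication genes were among the 14429 genes tested.

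The study compared spheroids, grown to enrich cells with stem-like traits, with the adherent cells of the same line. HCT116 and LOVO are established lines of human colorectal carcinoma and the labels give both as wild type. Adherent HCT116 cells and adherent LOVO cells were untreated and were kept in RPMI-1640 with fetal bovine serum. The study describes HCT116 spheroids and LOVO spheroids as raised without serum, with growth factors, on surfaces that cells cannot attach to and in the presence of oxaliplatin, a platinum drug that crosslinks DNA. The labels of the spheroid libraries give a dose of 1 mg/ml without naming the drug, whereas the study's results text gives the oxaliplatin dose in micrograms per ml. Growth form, medium and drug differed together between the groups and cannot be told apart. Each of the 4 groups was 1 library, so no spread between replicates exists, and each value below is that of a single library.

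The origin recognition complex marks the origins, and CDC6 and CDT1 then load the ring-shaped MCM2-7 helicase onto the DNA, a step called licensing. In S phase the DBF4-CDC7 kinase, CDC45, GINS and MCM10 turn the loaded rings into moving helicases. Polymerase alpha with primase lays down primers, the RFC clamp loader places the PCNA ring, and polymerases delta and epsilon extend the new strands. Most of these genes are transcribed in a wave before and during S phase under the control of E2F transcription factors, and dividing cells carry more of their mRNA than resting cells.

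Promoter sequences show a feature that many of these genes share. In RefSeq (GRCh38.p14) windows from 250 bases before to 50 bases after the start of transcription were found for 43 of the 50 genes, not for E2F8, GINS4, MCM4, MCM5, POLD3, RPA2 and RPA3. The E2F motif was searched on both strands as TTTCCCGC, TTTCGCGC, TTTGCCGC or TTTGGCGC. It stood in the windows of 23 of the 43 genes (53.5%), compared with 6.72% of the 9601 tested genes that had a window. Allowing the 7-letter core, which lacks the first T, raised the count to 32 of 43 genes (74.4%), against 25.5% of the tested genes. Of the 32 full-length matches, 26 began within 100 bases of the start. TTTGAA, the CHR motif of genes expressed in mitosis, stood in the window of 1 replication gene, DBF4 (2.33%), against 13.1% of tested genes and 17 of 25 mitotic genes (68%). The searched motif sets differ in length and in base composition, so their shares are compared only with the share of the same motif in other promoters.

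The stretches printed here run from 100 bases before to 20 bases after the start of transcription, 5′ to 3′ on the strand of the gene, with full-length E2F motifs in capitals. MCM2 (chr3:127598311-127598430, plus strand), CDC6 (chr17:40287779-40287898, plus strand) and CDT1 (chr16:88803689-88803808, plus strand) are shown because their mRNAs were among those lowest in spheroids relative to adherent cells. MCM10 and ORC1, also among the 6 lowest by mean difference over both lines, carried no full-length motif and are not printed. PCNA (chr20:5126603-5126722, minus strand) and MCM7 (chr7:100101378-100101497, minus strand) are shown as the most abundant of the set. E2F1 (chr20:33686366-33686485, minus strand) and POLA2 (chr11:65261862-65261981, plus strand) carried the motif although their levels were higher in LOVO spheroids than in adherent LOVO cells. RFC1 (chr4:39366343-39366462, minus strand) and ORC2 (chr2:200963641-200963760, minus strand) carried no full-length motif and had the smallest differences in HCT116 among their complexes. In MCM2 a motif and its reverse complement overlapped.
MCM2: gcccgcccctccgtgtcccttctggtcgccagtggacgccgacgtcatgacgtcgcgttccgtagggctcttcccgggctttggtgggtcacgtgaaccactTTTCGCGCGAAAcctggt
CDC6: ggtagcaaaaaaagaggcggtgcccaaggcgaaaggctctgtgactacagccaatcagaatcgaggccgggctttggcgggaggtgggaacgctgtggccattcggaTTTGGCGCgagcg
CDT1: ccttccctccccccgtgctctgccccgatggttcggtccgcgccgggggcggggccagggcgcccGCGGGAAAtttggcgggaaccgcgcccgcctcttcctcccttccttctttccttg
PCNA: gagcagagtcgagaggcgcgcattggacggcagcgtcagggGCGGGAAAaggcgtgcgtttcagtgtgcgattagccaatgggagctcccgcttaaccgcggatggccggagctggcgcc
MCM7: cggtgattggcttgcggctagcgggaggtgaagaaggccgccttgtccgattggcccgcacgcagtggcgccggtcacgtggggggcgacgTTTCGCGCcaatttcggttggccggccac
E2F1: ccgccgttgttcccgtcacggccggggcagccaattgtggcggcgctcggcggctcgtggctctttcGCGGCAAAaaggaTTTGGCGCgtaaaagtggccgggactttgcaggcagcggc
POLA2: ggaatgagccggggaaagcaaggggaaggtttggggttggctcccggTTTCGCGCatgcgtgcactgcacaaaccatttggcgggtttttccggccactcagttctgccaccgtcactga
RFC1: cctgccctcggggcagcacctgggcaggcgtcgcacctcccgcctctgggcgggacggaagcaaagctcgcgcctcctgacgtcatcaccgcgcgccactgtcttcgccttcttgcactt
ORC2: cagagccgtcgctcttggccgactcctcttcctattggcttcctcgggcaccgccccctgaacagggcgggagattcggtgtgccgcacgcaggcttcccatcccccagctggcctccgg

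The libraries held between 15483569 reads on genes (HCT116 spheroids) and 20429147 (adherent HCT116 cells), as recovered from the FPKM values and gene lengths. Reads of mitochondrial genes took 6.77% and 11.1% in HCT116 and 3.65% and 3.97% in LOVO, adherent cells first, and those of ribosomal protein genes 6.19% and 4.55% in HCT116 and 4.36% and 2.19% in LOVO. Epithelial markers were present in both HCT116 libraries, with EPCAM at 85.6 and 79.3 FPKM and CDH1 at 31.1 and 31.1 FPKM in adherent cells and spheroids. In the libraries labelled LOVO, EPCAM stood at 0.930 and 1.499 FPKM and CDH1 at 0.117 and 0.00805 FPKM, and KRT8 and KRT18 were present at 81.6 to 189 FPKM. CDX1, CDX2 and VIL1 had no read there. CDX1 (0.0279 and 0 FPKM) and VIL1 (0.0425 and 0.0946 FPKM) were near 0 in HCT116 as well, while CDX2 stood at 3.84 and 3.12 FPKM, adherent cells first. The 10 epithelial markers summed to 1841 and 1329 FPKM in HCT116 and to 354 and 206 FPKM in LOVO, adherent cells first. The 7 fibroblast markers summed to 5.63 and 16.1 FPKM in HCT116 and to 54.1 and 72.8 FPKM in LOVO, led by LUM at 31.4 and 50.4 FPKM, while COL1A2 was at or near 0 in all 4 libraries. CLDN7 stood at 26.8 and 19.1 FPKM and KRT19 at 14.9 and 4.85 FPKM in LOVO, adherent cells first. Of the 10 epithelial markers, 4 and 5 reached 1 FPKM in LOVO, and 7 and 8 in HCT116. THY1 was near 0 in all 4 libraries, and COL1A1 was higher in HCT116 spheroids (15.5 FPKM) than in LOVO spheroids (6.10 FPKM). Both libraries labelled LOVO thus lacked some epithelial markers and held others, and the part of this in the replication genes was not tested. The 6 immune markers summed to 0.250 to 2.18 FPKM, with PTPRC and MS4A1 at or near 0, and the 4 endothelial markers to 0.306 to 7.84 FPKM, with PECAM1 at 6.35 FPKM in LOVO spheroids and at 0.0359 to 0.391 FPKM in the other libraries.

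In HCT116 the replication genes took 59050 reads of the adherent library and 23644 of the spheroid library, 0.289% and 0.153% of all reads. In LOVO they took 132883 reads in adherent cells and 97082 in spheroids, 0.672% and 0.508%. The FPKM values of the 50 genes summed to 737 and 353 in HCT116 and to 1900.0 and 1240.3 in LOVO, adherent cells first. The median gene of the set stood at 8.51 and 4.47 FPKM in HCT116 and at 20.6 and 16.3 FPKM in LOVO, again with adherent cells first. PCNA was the highest of the set in every library. The fewest reads behind a value were those of POLA2 in HCT116, with 93 in adherent cells and 35 in spheroids. More than 10% of the exonic bases overlapped other annotated genes for 7 of the 50 genes (POLA2, TIPIN, PRIM1, GINS4, MCM2, GINS3 and RFC5), and more than 10% of the 50-base stretches also occurred in other genes for 5 (POLA2, TIPIN, PRIM2, DBF4 and PRIM1), so reads of these genes are less certain.

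**Figure D1:**
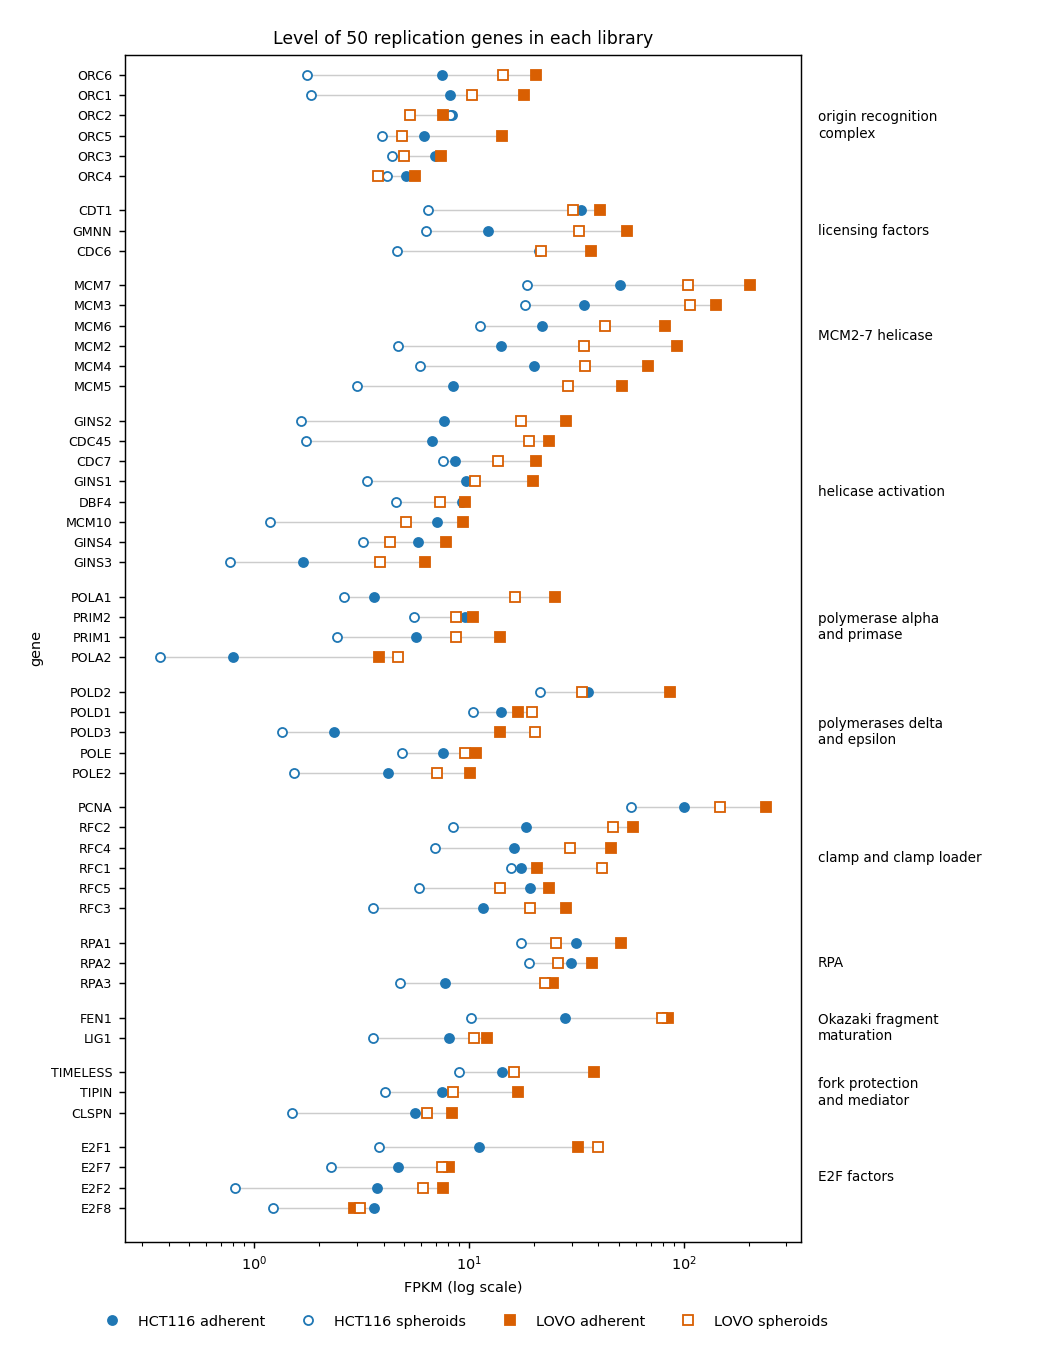
FPKM (log scale, x axis) of the 50 replication genes in the 4 libraries, grouped by role and ordered by mean level within a role. Filled symbols are adherent cells and open symbols spheroids, and open circles (HCT116) lie left of filled circles for all 50 genes, and open squares (LOVO) left of filled squares for 44 of them (39 after rescaling to TPM).

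In HCT116, all 50 replication genes had lower values in spheroids than in adherent cells, as did 53.4% of all genes tested. Differences are given as log2(FPKM + 1) of spheroids minus that of adherent cells, a scale that understates the differences of low genes. The median over the 50 genes was -0.89, against -0.03 over all genes tested. The difference was below -1 for 22 of the 50 genes, compared with 3.33% of all genes, and above 1 for 0 of them, compared with 2.19%. CDT1 was the 1 gene below -2, where 0.506% of all genes lay. That count depended on the scale, since 4 genes were below -2 after rescaling to TPM (CDC6, CDT1, GINS2 and MCM10), and with 0.1 added in place of 1 there were 7 (these 4 with ORC1, ORC6 and E2F2), beside 0.894% and 1.28% of all genes. The 95% counting interval of the log2 FPKM ratio, taken without the added 1 and covering counting error only, lay below 0 for 49 of the 50 genes and for 35.0% of all genes, and the exception was ORC2. Without the added 1 the ratio is further from 0, so an interval can lie below the difference it stands beside. ORC2 also turned to 0.0045 when values were centred on the median of all genes and to 0.03 when mitochondrial reads were left out of the library sizes, which leaves 49 genes lower. The share of mitochondrial reads was higher in HCT116 spheroids than in adherent HCT116 cells (11.1% and 6.77%), and with those reads left out the median over the 50 genes was -0.84. In bulk RNA, fewer cells in or near S phase and less of these mRNAs per cell cannot be told apart.

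In LOVO the same comparison gave lower values in spheroids for 44 of the 50 genes, against 53.5% of all genes. Rescaling to TPM, where the values of every library have the same sum, left 39 of them lower. It moved the median of all genes from -0.06 to 0.10, and the share of all genes lower on that scale was not counted. The median difference was -0.53, against -0.06 over all genes tested. Here 4 genes were below -1 (MCM2, ORC5, POLD2 and TIMELESS), which is 8% of the set and close to the 7.85% of all genes. None of the 50 genes was above 1, where 8.57% of all genes lay, and none was below -2, where 0.943% lay. Counting intervals lay below 0 for 43 of the 50 genes (42.0% of all genes) and above 0 for E2F1, POLA2, POLD1, POLD3 and RFC1 (32.1% of all genes). They covered 0 for E2F7 and E2F8.

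Set side by side, 44 of the 50 genes had lower spheroid values in each line, against 35.1% of all genes. After rescaling to TPM it was 39 of the 50, and the share of all genes was not counted on that scale. MCM2 alone was below -1 in both, where 0.880% of all genes lay. For 38 of the 50 genes the difference was lower in HCT116 than in LOVO, against 47.8% of all genes. Of the other 12, POLD2, POLA1, ORC2, ORC4, ORC5, CDC7 and TIMELESS differed by more in LOVO under every setting run that kept them. The order of MCM2, MCM6, GINS4, RPA1 and TIPIN turned under at least 1 other pseudocount or scaling. 6 genes were lower in HCT116 spheroids and higher in LOVO spheroids (E2F1, E2F8, POLA2, POLD1, POLD3 and RFC1), against 17.9% of all genes. Over the 50 genes the differences in the 2 lines had a Pearson r of 0.247 and a Spearman rho of 0.242, compared with 0.302 and 0.353 over the 14429 genes tested, where the points of a line share its libraries.

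**Figure D2:**
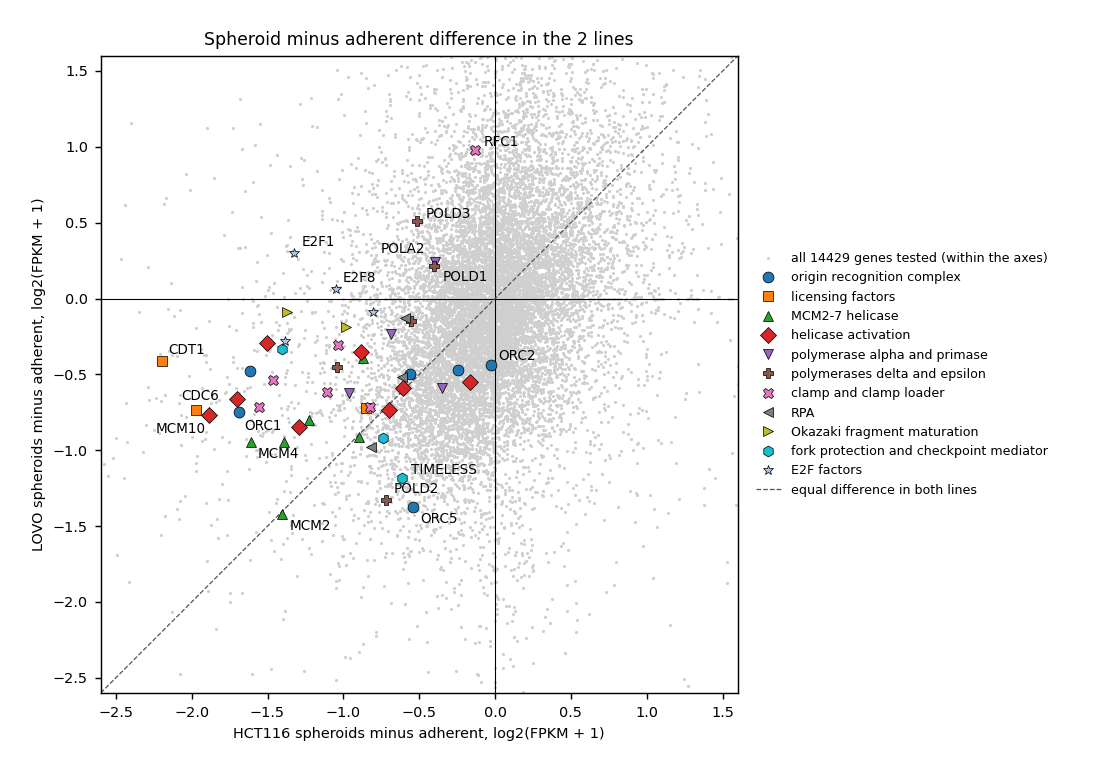
Spheroid minus adherent difference on the log2(FPKM + 1) scale in HCT116 (x axis) and LOVO (y axis), 1 library per group, with the 50 replication genes marked by role over all 14429 genes tested. All 50 symbols lie left of the vertical zero line, ORC2 at -0.03, and 44 lie below the horizontal one (39 after rescaling to TPM).

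The lines served as replicates of each other in a limma fit on log2(FPKM + 1) with cell line as a covariate, which left 1 residual degree of freedom. At a Benjamini-Hochberg adjusted p below 0.05 it called 0 of the 50 genes, as 0% of all genes, and the smallest adjusted p among the 50 was 0.462. At an unadjusted p below 0.05 it called 25 of the 50 genes, all lower in spheroids, against 10.7% of all genes. These 25 held 5 of the 6 MCM2-7 subunits (all but MCM3), the 3 licensing factors, PCNA, RFC3, RFC4 and RFC5, and none of the 4 E2F factors. Without the covariate 0 of the 50 had an unadjusted p below 0.05.

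The 6 subunits of the origin recognition complex, which binds origins and recruits the loading factors, had a median difference of -0.55 in HCT116 and -0.49 in LOVO. In what follows, levels given as from a first to a later value run from adherent cells to spheroids of the line named. ORC1, the subunit whose level is known to follow the cell cycle, went from 8.17 to 1.85 FPKM in HCT116 and from 17.96 to 10.3 FPKM in LOVO. ORC6, the most abundant ORC mRNA on average, went from 7.48 to 1.77 FPKM in HCT116 and from 20.6 to 14.5 FPKM in LOVO. These 2 subunits stood apart in HCT116, with differences of -1.69 and -1.62, whereas ORC2, ORC3, ORC4 and ORC5 lay between -0.56 and -0.03. In LOVO ORC1 and ORC6 did not stand apart as a pair. ORC1, at -0.75, was lower than ORC2, ORC3 and ORC4 (-0.50 to -0.44) but not than ORC5 (-1.38), and ORC6, at -0.48, lay within the range of those 3. ORC5 had the largest difference of the complex in LOVO and went from 6.14 to 3.92 FPKM in HCT116 and from 14.3 to 4.90 FPKM in LOVO. ORC2 went from 8.30 to 8.12 FPKM in HCT116 and from 7.59 to 5.33 FPKM in LOVO, so the ratio of ORC1 to ORC2 FPKM went from 0.985 to 0.228 for HCT116 and from 2.37 to 1.93 for LOVO. ORC3 and ORC4 had differences of -0.56 and -0.24 in HCT116 and of -0.50 and -0.47 in LOVO.

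The 3 licensing factors had the lowest median of the 11 roles in HCT116, -1.97, and a median of -0.72 in LOVO. CDC6, the ATPase that loads the helicase together with ORC, went from 21.1 to 4.63 FPKM in HCT116 and from 36.9 to 21.7 FPKM in LOVO, which was 4.55-fold lower in HCT116 spheroids and 1.70-fold lower in LOVO spheroids. CDT1, which brings the MCM ring to the origin, went from 33.1 to 6.42 FPKM in HCT116 and from 40.7 to 30.3 FPKM in LOVO and had a difference in HCT116 of -2.20 (counting interval -2.53 to -2.20), the lowest of the 50 genes on this scale, where MCM10 was lower than CDT1 with 0.1 or 0.01 added in place of 1. In LOVO the CDT1 difference was -0.41 (counting interval -0.51 to -0.34). GMNN encodes geminin, the inhibitor of CDT1, and went from 12.2 to 6.32 FPKM in HCT116 and from 54.3 to 32.6 FPKM in LOVO. CDT1 stood above GMNN in adherent HCT116 cells, with a ratio of FPKM of 2.71, and near it in HCT116 spheroids (1.02). In LOVO the ratio was below 1 in both libraries, 0.750 in adherent cells and 0.931 in spheroids.

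All 6 subunits of the replicative helicase had lower spheroid values in each line, with medians of -1.31 in HCT116 and -0.93 in LOVO, in LOVO next to the -0.92 of the fork protection genes. MCM2 went from 14.02 to 4.67 FPKM in HCT116 and from 92.8 to 34.1 FPKM in LOVO, and its difference was similar in the 2 lines, -1.40 (counting interval -1.75 to -1.42) and -1.42 (-1.503 to -1.39). MCM4 went from 20.1 to 5.90 FPKM in HCT116 and from 67.9 to 34.8 FPKM in LOVO. MCM5 went from 8.38 to 3.001 FPKM in HCT116 and from 51.3 to 28.97 FPKM in LOVO. The level of MCM5 was the lowest of the 6 in every library. MCM7, the highest of the 6 in all libraries but LOVO spheroids, went from 50.5 to 18.6 FPKM in HCT116 and from 202 to 105 FPKM in LOVO. MCM6 went from 21.8 to 11.2 FPKM in HCT116 and from 81.9 to 42.99 FPKM in LOVO. MCM3 went from 34.2 to 18.3 FPKM in HCT116 and from 140.4 to 107 FPKM in LOVO and had the smallest difference of the 6 in both lines, -0.87 and -0.39. The share of MCM3 in the summed FPKM of the 6 subunits accordingly went from 22.97% to 29.6% for HCT116 and from 22.1% to 30.4% for LOVO, adherent cells to spheroids. The share of MCM2 went the other way, from 9.41% to 7.57% and from 14.6% to 9.68%. The proteins act as a ring with 1 copy of each subunit, while their mRNAs differed in level by several-fold within each library. Part of the exonic bases of MCM2 (23.6%) overlap genes of the opposite strand, AC023593.1 and TPRA1, and whether counting used strand is not given in the sources used here.

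**Figure D3:**
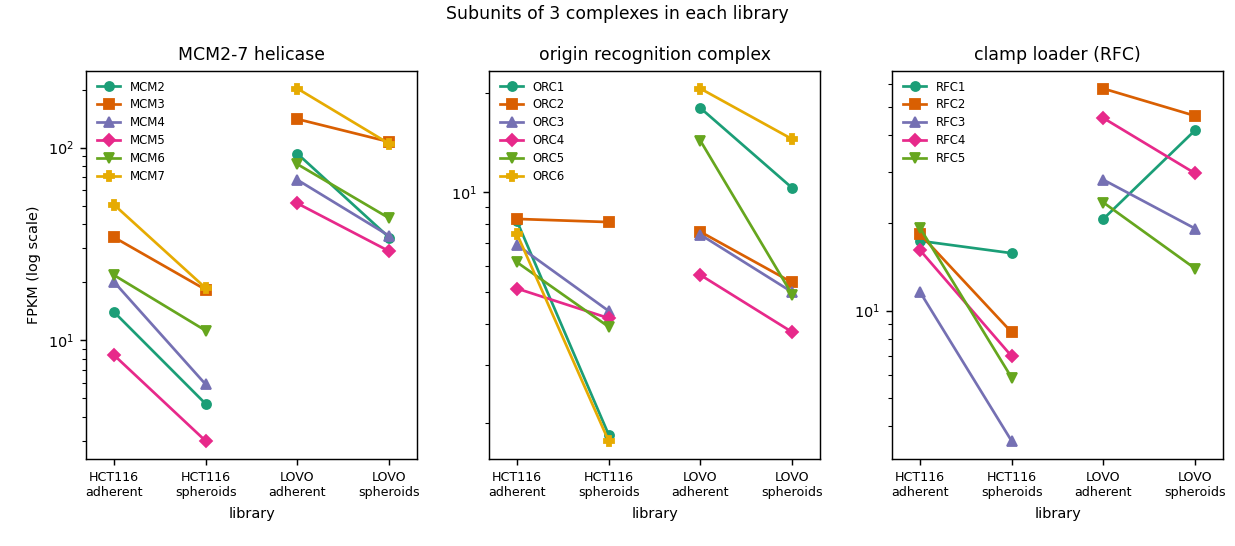
FPKM (log scale, y axis) of the subunits of the MCM2-7 helicase, the origin recognition complex and the RFC clamp loader in the 4 libraries (x axis), with lines joining the adherent cells and spheroids of each cell line. All 6 MCM subunits run down in both lines, ORC1 and ORC6 run down more steeply than ORC2 to ORC5 in HCT116, and RFC1 runs up in LOVO from 20.7 to 41.7 FPKM.

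8 genes turn the loaded ring into an active helicase, and all 8 had lower spheroid values in each line, with medians of -1.09 and -0.62. MCM10, needed for the ring to start unwinding, went from 7.08 to 1.19 FPKM in HCT116 and from 9.42 to 5.11 FPKM in LOVO, and HCT116 spheroids held 109 reads of it against 787 in adherent cells. CDC45, a partner of the moving helicase, went from 6.74 to 1.74 FPKM in HCT116 and from 23.6 to 19.1 FPKM in LOVO. Its difference was far lower in HCT116 (-1.500) than in LOVO (-0.29). The 4 GINS genes encode a small complex that joins CDC45 on the helicase, and GINS2, the highest of the helicase activation genes on average over the 4 libraries, went from 7.67 to 1.66 FPKM in HCT116 and from 28.2 to 17.5 FPKM in LOVO. GINS1 had differences of -1.29 and -0.85, and GINS4 of -0.70 and -0.73. GINS3 was the lowest of this role in both adherent libraries and went from 1.69 to 0.770 FPKM in HCT116 and from 6.27 to 3.84 FPKM in LOVO. CDC7, the kinase that fires origins, went from 8.63 to 7.60 FPKM in HCT116 and from 20.5 to 13.7 FPKM in LOVO, a difference of -0.16 in HCT116, the smallest of the 8 there. DBF4, its activating subunit, had -0.88 in HCT116 and -0.35 in LOVO. The ratio of CDC7 to DBF4 FPKM was thus 0.932 and 1.67 in adherent cells and spheroids of HCT116, and 2.14 and 1.88 in those of LOVO.

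Polymerase alpha and primase start each new strand. POLA1, the catalytic subunit that extends the RNA primer, went from 3.62 to 2.62 FPKM in HCT116 and from 25.1 to 16.3 FPKM in LOVO, and POLA1 and MCM2 differed most between the 2 adherent libraries, in an order that depends on the pseudocount. POLA2, its accessory subunit, went from 0.797 to 0.364 FPKM in HCT116 and from 3.80 to 4.66 FPKM in LOVO, higher in LOVO spheroids. PRIM1, the subunit that makes the primer, went from 5.68 to 2.42 FPKM in HCT116 and from 13.98 to 8.71 FPKM in LOVO. PRIM2, its partner, had differences of -0.69 in HCT116 and -0.23 in LOVO. The medians of the 4 genes were -0.54 and -0.41. POLA2 is the least certain of the 50 genes, since 35.1% of its exonic bases overlap the gene AP000944.2 on the same strand and 34.7% of its 50-base stretches also occur in other genes.

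Polymerase delta extends the lagging strand and polymerase epsilon the leading strand, and the medians of the 5 genes were -0.55 for HCT116 and -0.15 for LOVO. The subunits of polymerase delta went opposite ways in LOVO. POLD2, an accessory subunit, went from 35.9 to 21.4 FPKM in HCT116 and from 85.7 to 33.5 FPKM in LOVO. POLD1, the catalytic subunit, went from 14.1 to 10.4 FPKM in HCT116 and from 16.9 to 19.7 FPKM in LOVO, differences of -0.40 and 0.21. POLD3, another accessory subunit, went from 2.36 to 1.35 FPKM in HCT116 and from 13.9 to 20.2 FPKM in LOVO, with counting intervals of -1.12 to -0.49 in HCT116 and 0.44 to 0.64 in LOVO, and was the 1 gene of the set beyond 0.5 in opposite directions. The ratio of POLD2 to POLD1 FPKM was 2.56 and 2.06 in adherent cells and spheroids of HCT116, and 5.07 and 1.70 in those of LOVO. POLE, the catalytic subunit of polymerase epsilon, had differences of -0.55 in HCT116 and -0.15 in LOVO, the latter 0.04 after rescaling to TPM. POLE2, its accessory subunit, went from 4.22 to 1.53 FPKM in HCT116 and from 10.1 to 7.10 FPKM in LOVO.

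PCNA, the sliding ring that holds polymerases on DNA, went from 101 to 56.5 FPKM in HCT116 and from 242 to 147 FPKM in LOVO, differences of -0.82 and -0.72. The medians of PCNA and the 5 RFC genes were -1.07 in HCT116 and -0.57 in LOVO. RFC2, RFC3, RFC4 and RFC5, the small subunits of the loader, had lower spheroid values in each line. RFC2 went from 18.4 to 8.43 FPKM in HCT116 and from 57.98 to 46.7 FPKM in LOVO. RFC3 went from 11.6 to 3.56 FPKM in HCT116 and from 28.2 to 19.1 FPKM in LOVO. RFC4 went from 16.2 to 6.97 FPKM in HCT116 and from 45.9 to 29.6 FPKM in LOVO. All 4 differed by more in HCT116 than in LOVO. RFC5 was lower by 3.28-fold in HCT116 spheroids and by 1.69-fold in LOVO spheroids. RFC1, the large subunit, stood apart from them and went from 17.4 to 15.8 FPKM in HCT116 and from 20.7 to 41.7 FPKM in LOVO. Its difference in HCT116 was -0.13 (counting interval -0.23 to -0.05) and in LOVO 0.98 (0.94 to 1.08), the highest of the 50 genes in LOVO. The share of RFC1 in the summed FPKM of the 5 RFC genes went from 20.99% to 38.8% for HCT116 and from 11.7% to 27.6% for LOVO. It was therefore larger in the spheroids of both lines, although the level of RFC1 differed in opposite directions.

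RPA coats single-stranded DNA at the fork, and its 3 genes had medians of -0.61 and -0.52. RPA1, the large subunit and the highest of the 3 on average, went from 31.6 to 17.5 FPKM in HCT116 and from 51.1 to 25.5 FPKM in LOVO. RPA3 went from 7.73 to 4.79 FPKM in HCT116 and from 24.7 to 22.5 FPKM in LOVO, and its LOVO difference of -0.13 became 0.07 after rescaling to TPM. RPA2 had differences of -0.61 and -0.52. FEN1, the nuclease that trims the flaps of Okazaki fragments, went from 28.1 to 10.2 FPKM in HCT116 and from 84.5 to 79.5 FPKM in LOVO, and LIG1, the ligase that seals them, had differences of -0.98 and -0.19. Both were lower in HCT116 spheroids and close to their adherent level in LOVO spheroids, where rescaling to TPM gave 0.12 for FEN1 and 0.0023 for LIG1.

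TIMELESS and TIPIN form a complex that travels with the fork and CLSPN passes the checkpoint signal from stalled forks to the kinase CHK1. The medians of the 3 genes were -0.74 in HCT116 and -0.92 in LOVO, lower in LOVO than in HCT116 except after rescaling to TPM. TIMELESS went from 14.3 to 8.97 FPKM in HCT116 and from 38.1 to 16.2 FPKM in LOVO. TIPIN went from 7.46 to 4.06 FPKM in HCT116 and from 16.9 to 8.46 FPKM in LOVO. CLSPN had the reverse order of size, with -1.40 in HCT116 and -0.34 in LOVO.

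E2F1 and E2F2 activate S phase genes, and E2F7 and E2F8 repress them later in the cycle. In HCT116 all 4 were lower in spheroids, with a median of -1.19, and in LOVO the median was -0.01. E2F1 went from 11.1 to 3.83 FPKM in HCT116 and from 32.1 to 39.7 FPKM in LOVO. Its counting intervals, which cover counting error only, were -1.79 to -1.28 in HCT116 and 0.21 to 0.41 in LOVO. E2F8 went from 3.60 to 1.22 FPKM in HCT116 and from 2.92 to 3.10 FPKM in LOVO. The LOVO difference of E2F8, 0.06, had a counting interval of -0.18 to 0.35, so no direction was detectable at this depth. E2F2 had differences of -1.38 and -0.28, and E2F7 of -0.80 and -0.09, the latter 0.10 after rescaling to TPM. E2F1 thus differed in direction in LOVO from most of the genes that carry the E2F motif, and the part of E2F1 in their levels was not tested. The 23 genes with a full-length motif had median differences of -0.98 in HCT116 and -0.55 in LOVO, and the 20 genes with a window and no such motif -0.85 and -0.48.

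**Figure D4:**
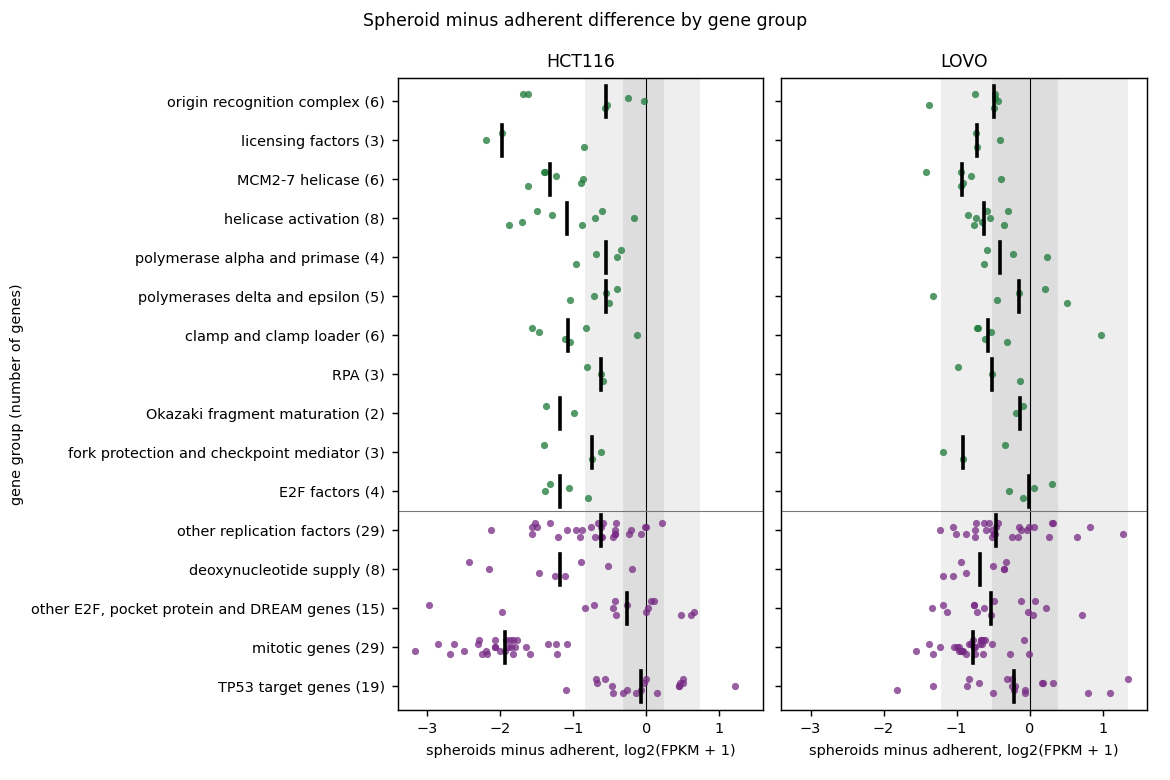
Spheroid minus adherent difference on the log2(FPKM + 1) scale (x axis) for each gene of the 11 replication roles (green, above the line) and of 5 comparison lists (purple, below the line), in HCT116 (left) and LOVO (right), with black bars for group medians and shaded bands for the 25th to 75th and the 5th to 95th percentiles of all genes tested. In HCT116 the licensing factors have the lowest median of the roles (-1.97) and in LOVO the MCM2-7 helicase (-0.93) and fork protection (-0.92) the lowest 2, in the reverse order after rescaling to TPM or with smaller pseudocounts.

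The levels also differed between the lines. Adherent LOVO cells stood above adherent HCT116 cells for 48 of the 50 genes, compared with 53.0% of all genes, and by more than 1 on the log2(FPKM + 1) scale for 29 of them, compared with 17.4%. The exceptions were ORC2 and E2F8. The median LOVO minus HCT116 difference of the adherent cells was 1.13 over the 50 genes and 0.07 over all genes. On this scale it was largest for MCM2 (2.64), POLA1 (2.499), MCM5 (2.48), POLD3 (2.15) and GMNN (2.06). The MCM2-7 genes had the highest median of the 11 roles, 1.99, and summed to 637 FPKM in adherent LOVO cells against 149 FPKM in adherent HCT116 cells. In the spheroids 48 of the 50 genes were higher in LOVO, against 51.6% of all genes, and 34 by more than 1, against 17.7%. There the exceptions were ORC2 and ORC4, and the median difference was 1.53. LOVO spheroids stood above even adherent HCT116 cells in the summed FPKM of the 50 genes, 1240.3 against 737. The lines differed by 1 library each, and the marker values above differed with them, so that these differences compare libraries.

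Other genes of cell division gave the frame for these values, and the lists stand beside all genes tested, whose medians were -0.03 in HCT116 and -0.06 in LOVO. Of 32 other replication factors 29 were tested, with medians of -0.62 in HCT116 and -0.46 in LOVO. In HCT116 28 of the 29 were lower in spheroids and 8 were below -1, against 53.4% and 3.33% of all genes. In LOVO 22 were lower and 3 below -1, against 53.5% and 7.85% of all genes. ASF1B, a histone chaperone, went from 32.05 to 6.61 FPKM in HCT116 and from 46.5 to 42.7 FPKM in LOVO. PCLAF, which binds PCNA, went from 3.67 to 0.574 FPKM in HCT116 and from 17.5 to 7.95 FPKM in LOVO. POLD4, the smallest subunit of polymerase delta, went from 2.74 to 1.78 FPKM in HCT116 and from 0.841 to 3.46 FPKM in LOVO, and like POLD1 and POLD3 it was higher in LOVO spheroids. The 8 genes of deoxynucleotide supply were all lower in both lines, against 35.1% of all genes, with medians of -1.18 and -0.68. RRM2, the S phase subunit of ribonucleotide reductase, went from 18.5 to 2.62 FPKM in HCT116 and from 17.6 to 8.67 FPKM in LOVO, and TK1, thymidine kinase, went from 137 to 30.3 FPKM in HCT116 and from 102 to 80.3 FPKM in LOVO.

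The 29 tested mitotic genes of a list of 30 had lower spheroid values in each line without exception, against 35.1% of all genes. Their medians were -1.93 in HCT116 and -0.78 in LOVO. In HCT116 all 29 were below -1, against 22 of the 50 replication genes and 3.33% of all genes. In LOVO 5 of the 29 were, against 7.85% of all genes. CDC20, which triggers anaphase, went from 168 to 17.96 FPKM in HCT116 and from 43.8 to 21.9 FPKM in LOVO. PLK1, a mitotic kinase, went from 19.7 to 3.50 FPKM in HCT116 and from 33.6 to 10.8 FPKM in LOVO. TTK, the spindle checkpoint kinase, went from 10.9 to 2.94 FPKM in HCT116 and from 7.54 to 7.46 FPKM in LOVO and hardly differed in LOVO. Between the lines, the mitotic genes had a median difference of 0.19 in adherent cells, where the replication genes had 1.13, and of 1.38 in spheroids, where the replication genes had 1.53.

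Of the 15 tested genes among 16 other E2F, pocket protein and DREAM genes, 8 were lower in HCT116 spheroids and 11 in LOVO spheroids, with medians of -0.27 and -0.53. Of all genes tested, 53.4% were lower in HCT116 spheroids and 53.5% in LOVO spheroids, so the HCT116 count was near that share. MYBL2, which drives G2 and mitotic genes, went from 29.1 to 2.85 FPKM in HCT116 and from 62.5 to 26.8 FPKM in LOVO, and FOXM1, which acts with it, went from 11.1 to 2.08 FPKM in HCT116 and from 27.03 to 11.7 FPKM in LOVO. RBL1, the pocket protein p107 and itself an E2F target, went from 3.93 to 1.76 FPKM in HCT116 and from 8.04 to 2.58 FPKM in LOVO. RBL2, the pocket protein p130 of resting cells, had higher spheroid values in each line and went from 6.53 to 9.47 FPKM in HCT116 and from 11.1 to 18.97 FPKM in LOVO. The 19 p53 target genes had medians of -0.07 and -0.21, with 12 lower in HCT116 spheroids and 13 in LOVO spheroids, beside the same 53.4% and 53.5% of all genes. CDKN1A, the inhibitor of cyclin-dependent kinases p21, was at 201.5 FPKM in both HCT116 libraries and at 24.5 and 63.9 FPKM in adherent cells and spheroids of LOVO. GADD45A, induced by DNA damage, went from 124 to 57.6 FPKM in HCT116 and from 19.3 to 4.78 FPKM in LOVO.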

How the data were processed

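RNA of 4 libraries (adherent cells and spheroids of HCT116 and LOVO, 1 library each) was sequenced after SMARTER mRNA-Seq library preparation. The authors deposited 1 table of FPKM values per gene, and its aligner, counter and strand setting are not given in the sources used here. The submitters' processing notes name the mouse builds GRCm38 and mm10, whereas all 58735 identifiers are human, and the lengths and coordinates of all 50 replication genes equal those of GENCODE release 29. FPKM multiplied by gene length gave whole reads for 100% of the values of each library (tolerance 0.01 reads), and these reads gave the depths and the exact Clopper-Pearson counting intervals (95%), which cover counting error only. The deposited values were scaled by library sizes of 0.907 to 1.09 times the recovered reads.

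Genes with a mean of at least 1 FPKM were kept, and differences were taken on the log2(FPKM + 1) scale. With 1 library per group there is no replicate test within a line. A moderated linear model with a mean-variance trend (limma 3.58.1, under R 4.3.3), with Benjamini-Hochberg adjustment over all genes, compared spheroids with adherent cells over both lines with cell line as covariate. Its p-values rest on the spread between the 2 lines, with the variance of each gene drawn toward a trend over all genes. They measure no spread between replicates of a line. Thresholds of 1 and 2 were used, 2 being that of the study's methods. Scripts ran in Python 3.11.15 and were tested on simulated data.

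The replication genes, the comparison lists and the rules were chosen with earlier results of these data known. Values in all 4 libraries were given for the genes with the 6 lowest and 4 highest mean differences, the highest gene of each role, genes beyond 2 in a line, beyond 0.5 in opposite directions or beyond 1 between the adherent libraries, and for at most 3 genes at each end of a comparison list. ORC2, RFC5 and the marker genes are named beside these as exceptions of a role or as checks of the labels. Alternatives were other pseudocounts, filters and scalings, protein-coding genes alone, no covariate and a shorter motif, and leaving out mitochondrial reads was added after seeing the data.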

Additional observations from a re-analysis of the deposited data

Results flagged for a closer look

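6 of the 50 genes moved in opposite directions in the 2 lines, lower in HCT116 spheroids and higher in LOVO spheroids. This is 12% of the set, against 17.9% of all genes tested, on the FPKM values as deposited. After rescaling to TPM, FEN1, RPA3, LIG1, POLE and E2F7 were also above 0 in LOVO, and the share of all genes was not counted on that scale. With 1 library per group the difference between the lines was not tested for any of the 6 genes. E2F1 had the largest gap, with the LOVO difference exceeding that of HCT116 by 1.62 on the log2(FPKM + 1) scale, and its values under the 10 settings run lay between -1.53 and -1.28 in HCT116 and between 0.30 and 0.51 in LOVO. E2F8 had a gap of 1.11, but its LOVO difference of 0.06 was within counting error. RFC1 had a gap of 1.11, nearly all of it from LOVO, where it lay between 0.98 and 1.21 over the settings. POLD3 had a gap of 1.02, with 0.51 to 0.73 in LOVO. POLA2 had a gap of 0.64 and rests on 93 and 35 reads in HCT116. POLD1 had a gap of 0.61.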

How the results depend on the processing

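The counts of replication genes below -1 ranged over the settings between 20 and 28 in HCT116 and between 4 and 5 in LOVO. The count lower in both lines ranged between 39 and 44. The settings did not all keep the same genes. Requiring a mean of at least 5 FPKM dropped E2F2 and E2F8, which were below -1 in HCT116 as reported (-1.38 and -1.05). A lower count under that filter therefore need not mean smaller differences. The share of all genes below -1, 3.33% in HCT116 and 7.85% in LOVO as reported, is not given for the other settings. The count below -2 in HCT116, 1 as reported, was 7 with a pseudocount of 0.1, 7 with 0.01 and 4 after rescaling to TPM. The median of the replication genes in HCT116 was -1.03 with a pseudocount of 0.1 and -1.12 with 0.01. Their median in LOVO was -0.35 after rescaling to TPM. That rescaling turned LOVO differences above 0 for FEN1 (0.12), RPA3 (0.072), LIG1 (0.0023), POLE (0.039) and E2F7 (0.10), and moved the median of all genes between the spheroids of the lines from 0.04 to 0.26. In HCT116, ORC2 turned to 0.0045 after centring on the median of all genes and to 0.033 without mitochondrial reads. Without the covariate limma gave 0 replication genes with an unadjusted p below 0.05, where the fit with cell line gave 25. The cause of these changes was not tested. The fit with cell line pairs the 2 libraries of each line. The labels give no replicate numbers, so no other pairing exists, and with 1 library per group none could be left out. Depth limits POLA2 in HCT116, with 93 and 35 reads. Counting intervals covered 0 for ORC2 in HCT116 and for E2F7 and E2F8 in LOVO.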
